A study of Homo sapiens with 3 samples.

Results

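The catalytic subunits of the proteasome and the PA28 caps that bind it were examined in HT-29 cells, an established human colon adenocarcinoma line of epithelial origin, after treatment with interferon-γ (IFN-γ). The members were 9 genes chosen by symbol: the immunosubunits PSMB8, PSMB9 and PSMB10, their constitutive counterparts PSMB5, PSMB6 and PSMB7, and the cap subunits PSME1, PSME2 and PSME3. Of these, 8 had a probe set (a group of short array probes for 1 transcript) annotated to that gene alone, among 11963 genes measured, and 11 probe sets covered them. The only probe set listed for PSME2 also carries the symbol of a microRNA gene, so PSME2 has no value here. The series holds 1 group of 3 Affymetrix arrays, which its design text describes as biological replicates: cells plated at 50000 per cm2 for 24 h in McCoy's 5A medium with 10% serum under 5% CO2, then given 200 U/ml IFN-γ for 24 h. No untreated cultures were analysed here, so every value below is a level in treated cells, no value is a response to IFN-γ, and in a bulk sample fewer cells expressing a gene and less RNA per cell cannot be told apart.

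The proteasome is the barrel-shaped protease that degrades ubiquitin-tagged proteins in the cytosol and nucleus. Of the subunits in its inner beta rings, only PSMB5 (chymotrypsin-like activity), PSMB6 (caspase-like activity) and PSMB7 (trypsin-like activity) cut peptide bonds. IFN-γ is known to induce PSMB8, PSMB9 and PSMB10, which take the places of PSMB5, PSMB6 and PSMB7 in newly built particles and shift the cut peptides towards ends that MHC class I molecules bind. PSME1 and PSME2 form the PA28αβ cap, also known as an IFN-γ target, whereas PSME3 forms the nuclear PA28γ cap and is not known as one. Lymphoid and myeloid cells carry immunosubunits without added interferon, while epithelial cells mostly depend on induction.

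The promoter sequences show where the members share letters that the choice of genes did not use. They come from RefSeq on build GRCh38.p14, as windows running from 250 bases before to 50 bases after each annotated start site, and 7 of the 9 members had an entry, with 9 windows in all. PSMB6 and PSMB7 had none. GAAANNGAAA, the core of the interferon-stimulated response element (ISRE) that IRF family factors bind, was searched on both strands. It was found in PSMB8, PSMB10, PSME1 and PSME2, which is 4 of 7 members with a window, and not in PSMB9, PSMB5 or PSME3. Among all 27305 genes with a window, 4.38% held it, and so did 1 of 6 genes of the core alpha ring, 1 of 3 non-catalytic beta subunits and 0 of 23 genes of the 19S particle. The share was as high in peptide transport and display, where 7 of 12 genes held it (TAP1, TAP2, TAPBP, ERAP1, ERAP2, B2M and HLA-F), so the match is not particular to the members. In the 4 members the matched letters were identical, GAAAGCGAAA, although neither middle base was fixed by the search. These 10 letters occurred in the windows of 34 genes, which is 0.125% of 27305. TAP1, the gene next to PSMB9 on chromosome 6, which encodes a subunit of the class I peptide transporter and is read from the opposite strand, held them too. The 30 bases around each match to these 10 letters are given below on the strand that reads GAAA, with that match in capitals, to show how far the likeness reaches. TAP1 also holds a second ISRE core, GAAATCGAAA, which overlaps the first and is not marked below. The first base named for a match is the one furthest upstream along the gene. Where the printed strand is opposite to the gene, that base is the last capital.
PSMB8 (chr6:32844032-32844061, plus strand, opposite to the gene, the match lying across the second annotated start site with its first base at -4): aggaggaagtGAAAGCGAAAgccacagatc
PSMB10 (chr16:67936852-67936881, minus strand, first base at -21 from the start site): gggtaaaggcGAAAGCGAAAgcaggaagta
PSME1 (chr14:24136189-24136218, minus strand, opposite to the gene, first base at transcribed base 6): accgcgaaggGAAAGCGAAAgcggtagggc
PSME2 (chr14:24146619-24146648, minus strand, first base at -28): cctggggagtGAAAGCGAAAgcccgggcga
TAP1 (chr6:32853813-32853842, plus strand, opposite to the gene, first base at -128 from its first start site): ccatttagggGAAAGCGAAAtcgaaagcgg
A match is a description of letters and shows no binding, and no match says only that these letters are absent from the window.

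**Figure D1:**
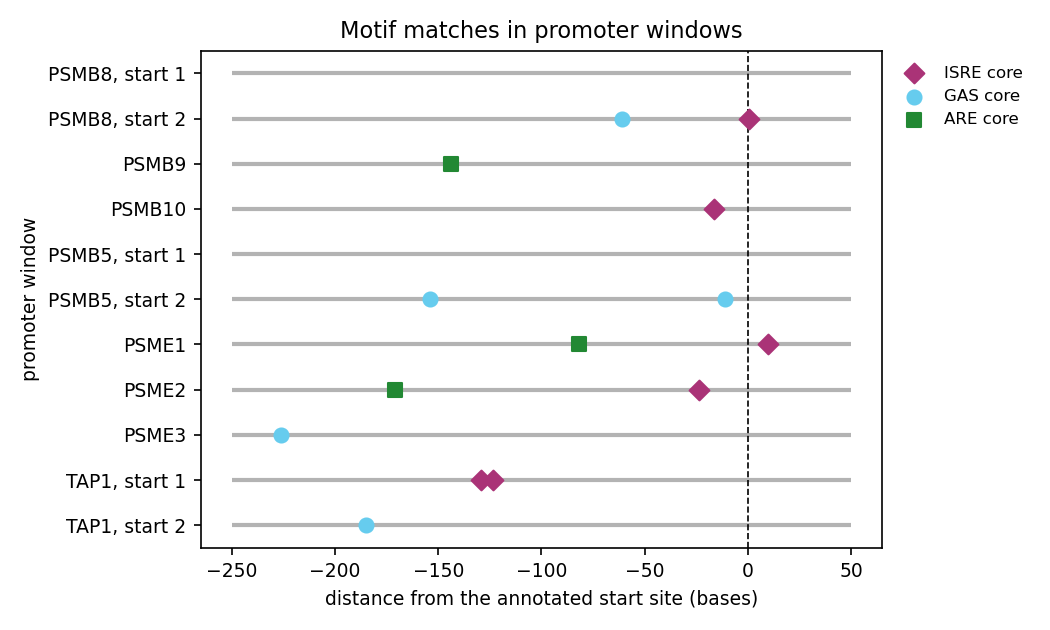
Positions of motif matches in the promoter windows of members and of TAP1, as distance in bases from the annotated start site (dashed line), with a grey bar for each window. Diamonds mark the ISRE core, which lies within 30 bases of a start site in PSMB8, PSMB10, PSME1 and PSME2, circles the core of the gamma-activated site and squares the core of the antioxidant response element.

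Complete upstream sequences show a contrast within the list. The 250 bases before the start site are printed for PSMB10, which has the ISRE core, for PSMB9, which has no match to it, and for PSME3, the cap not known as an interferon target. Capitals mark matches to GAAANNGAAA or to TTCNNNGAA, the core of the gamma-activated site. TTCNNNGAA occurs in 9.38% of genes with a window and in PSMB8, PSMB5 and PSME3 among the members. It did not overlap an ISRE core in any member.
PSMB10 (chr16:67936851-67937100, minus strand): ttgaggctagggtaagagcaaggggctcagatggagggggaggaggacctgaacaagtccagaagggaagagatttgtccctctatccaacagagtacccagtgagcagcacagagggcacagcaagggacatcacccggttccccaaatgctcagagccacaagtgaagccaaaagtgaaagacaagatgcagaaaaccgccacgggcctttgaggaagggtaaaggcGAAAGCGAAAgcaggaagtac
PSMB9 (chr6:32853942-32854191, plus strand): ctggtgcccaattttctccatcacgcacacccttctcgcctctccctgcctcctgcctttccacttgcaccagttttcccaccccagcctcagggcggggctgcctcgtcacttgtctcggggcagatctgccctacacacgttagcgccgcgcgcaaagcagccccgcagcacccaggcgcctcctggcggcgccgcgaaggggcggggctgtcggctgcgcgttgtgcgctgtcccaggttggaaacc
PSME3 (chr17:42833147-42833396, plus strand): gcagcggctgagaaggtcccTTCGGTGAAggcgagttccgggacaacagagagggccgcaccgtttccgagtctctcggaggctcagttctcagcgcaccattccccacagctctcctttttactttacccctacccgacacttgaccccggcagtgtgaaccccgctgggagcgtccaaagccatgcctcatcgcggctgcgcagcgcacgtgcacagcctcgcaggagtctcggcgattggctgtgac
The PSMB9 window ends before the region that holds the TAP1 matches, which lies further upstream in the stretch between both genes. TGACNNNGC, the core of the antioxidant response element that NFE2L1 and NFE2L2 bind, was found in 11 of 23 genes of the 19S particle, in PSMB9, PSME1 and PSME2 among the members, and in 16.1% of all genes with a window.

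In the deposited table the names are displaced against the values, and every level below rests on an order inferred from the values themselves. Signals of paired probe sets for 4310 genes gave r = 0.60 in the inferred order and r = 0.19 in the deposited one, a description across genes, not replicates. The members fall on 2 stretches of the file. PSMB8, PSMB9, PSMB5, PSMB6 and 2 probe sets of PSME3 are read 487 rows away from their deposited names. PSMB7, PSMB10, PSME1 and the other 2 probe sets of PSME3 are read 488 rows away. For 453 genes with a probe set on each stretch, the signals of both correlated with r = 0.49 under the inferred order and with r = 0.02 when the second stretch was read at 487 rows. With names as deposited, 0 of the 8 measured members were detected by limma. At an unadjusted p under 0.05 the count was 1, PSMB8. For these counts the background limit, defined below, was taken anew under the deposited names and lay far higher. PSMB7, with signals of 2155.5, 2149 and 1610 in replicates 1, 2 and 3 under those names, lay below it on average. The counts thus differ in the limit as well as in the names.

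All 8 measured members were detected, in the sense that their signal lay above the background limit of the array. That limit, taken from 81 genes known to be active only in other tissues, was the signal that 95% of them stayed under, which came to 233 in replicate 1, 207 in replicate 2 and 172 in replicate 3. A gene counted as detected at an adjusted p under 0.05 in a one-sided limma fit (Benjamini-Hochberg over the whole table), which held for 4982 of 11963 genes (41.6%). All 8 members also exceeded the limit on all 3 arrays, as did 44.0% of genes. The members' log2 signal over the limit had a median of 4.46 and ran between 3.48 and 5.43, against a median of -0.07 over all genes tested. Their adjusted p lay between 1.6e-12 and 2.0e-11, and was at most 8.4e-05 in limma without a variance trend. The limits differ between arrays, which shifts every gene by the same amounts and changes its spread in a way that depends on its own pattern. The limit was also treated as known. The size of these p-values therefore carries little information beyond detection. Probe sets differ in how strongly they bind, so the level of one gene was not set against that of another.

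**Figure D2:**
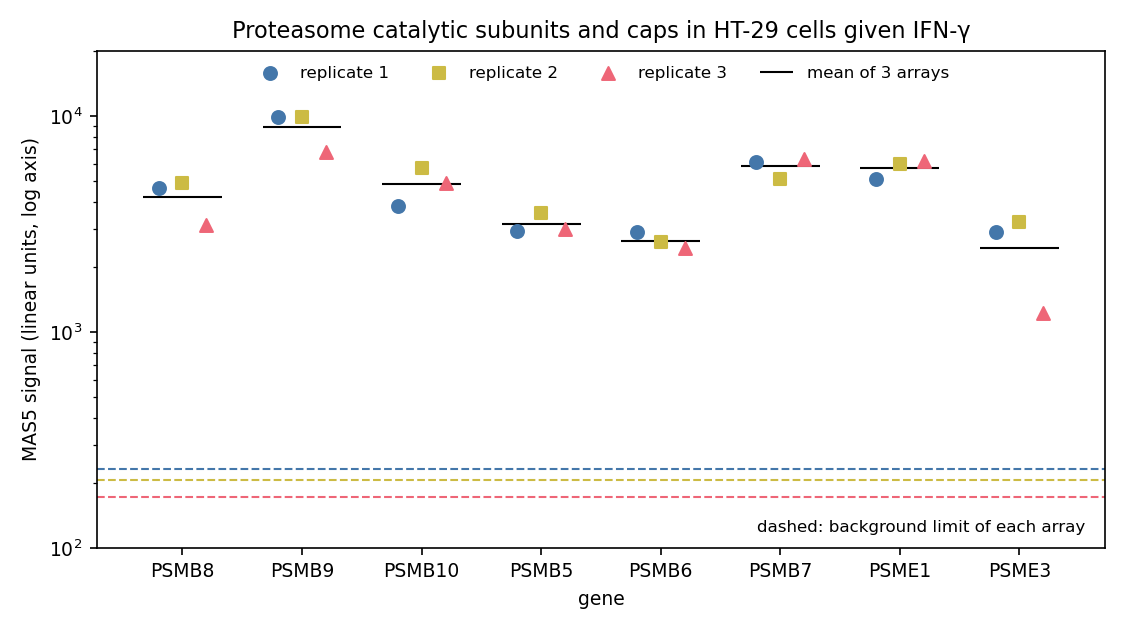
MAS5 signal of the 8 measured members (linear units on a log axis) on each of the 3 arrays, with black bars for the mean and dashed lines for the background limit of each array. All 24 points lie above the limits of 233, 207 and 172, and the points of replicate 3 lie apart from the other two for PSMB8, PSMB9 and PSME3.

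The immunosubunits had strong signals on every array. PSMB8 (β5i, the chymotrypsin-like immunosubunit, also named LMP7) had signals of 4646, 4894 and 3115 in replicates 1, 2 and 3, with a mean of 4219 ± 964 (SD, n = 3), 4.36 log2 units over the limit. PSMB9 (β1i, or LMP2, which takes the place of the caspase-like subunit) had 9907, 9909 and 6769, with a mean of 8862 ± 1813 (SD, n = 3), 5.43 log2 units over the limit. Both were level in replicates 1 and 2 and lowest in replicate 3. PSMB10 (β2i, or MECL1, which takes the place of the trypsin-like subunit) had 3829, 5760 and 4865, with a mean of 4818 ± 966 (SD, n = 3), 4.55 log2 units over the limit. Its lowest array was replicate 1 and its highest replicate 2, so it did not follow PSMB8 and PSMB9.

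The constitutive catalytic subunits were also well above the limit in the treated cells. PSMB5 (β5, the target of the drug bortezomib) had signals of 2936, 3544 and 2980 in replicates 1, 2 and 3, with a mean of 3153 ± 339 (SD, n = 3), 3.96 log2 units over the limit. PSMB6 (β1) had 2887, 2599.7 and 2444, with a mean of 2644 ± 225 (SD, n = 3), 3.71 log2 units over the limit. PSMB7 (β2) had 6138, 5102 and 6279, with a mean of 5840 ± 643 (SD, n = 3), 4.85 log2 units over the limit. The highest array was a different one for each of these 3 genes, and the ratio of the highest to the lowest array was only 1.21, 1.18 and 1.23.

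The caps behaved differently from each other. PSME1 (PA28α) had signals of 5099, 5951 and 6156 in replicates 1, 2 and 3, with a mean of 5735 ± 561 (SD, n = 3), 4.82 log2 units over the limit. Its arrays lay close together, with a highest to lowest ratio of 1.21. PSME3 (PA28γ) had 2893, 3214 and 1224 on the probe set used, with a mean of 2444 ± 1068 (SD, n = 3), 3.48 log2 units over the limit. Here replicate 3 stood well below the other arrays, with a highest to lowest ratio of 2.63.

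PSME3 is the one member with several probe sets, and all 4 lay above the limit on every array. The probe set 200987_x_at had signals of 2440, 1930 and 1587 in replicates 1, 2 and 3, and 209853_s_at had 1814, 1847 and 1329. The probe set 200988_s_at had 1042, 913 and 296. All 4 were lowest in replicate 3, but the ratio of the highest to the lowest array ran between 1.39 and 3.52 over them, so the size of the gap depends on the probe set. With the median over the 4 probe sets the SD of PSME3 was 0.38 log2 units, against 0.76 on the probe set used. All 4 carry a suffix (_x_at or _s_at) of designs that can also bind other transcripts.

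**Figure D3:**
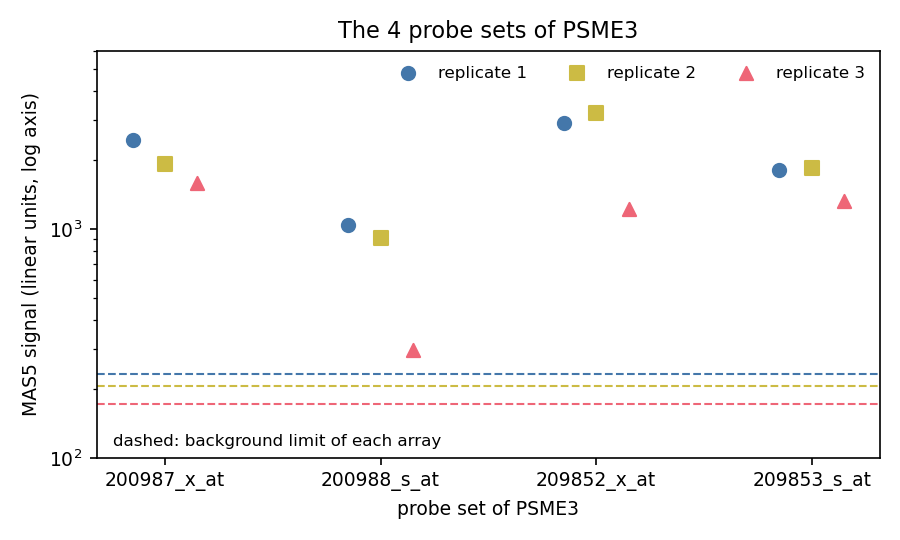
MAS5 signal (linear units on a log axis) of the 4 probe sets of PSME3 on each of the 3 arrays, with dashed lines for the background limit of each array. Replicate 3 is the lowest point on all 4 probe sets, at 296 on 200988_s_at and at 1587 on 200987_x_at.

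The spread between cultures differed among the members in the signals without further scaling, under the inferred names. The SD of log2 signal over the 3 arrays was 0.15 for PSMB5, 0.12 for PSMB6, 0.16 for PSMB7 and 0.14 for PSME1. It was 0.36 for PSMB8, 0.32 for PSMB9, 0.30 for PSMB10 and 0.76 for PSME3. The median over all 4982 detected genes was 0.29, with quartiles of 0.18 and 0.43. The 3 constitutive subunits and PSME1 thus lay under the lower quartile, the immunosubunits between the median and the upper quartile, and PSME3 above the upper quartile. These placements rest on single arrays and on the scaling. Without replicate 3 the SD was 0.053 for PSMB8, 0.00012 for PSMB9 and 0.11 for PSME3, against 0.19 for PSMB5, 0.11 for PSMB6 and 0.19 for PSMB7. Without replicate 1 the SD of PSMB10 was 0.17. When each array was centred on the median log2 level of the housekeeping genes, PSMB5 and PSMB6 had SDs of 0.37, near the 0.40 of PSMB10. Under that centring the SD was 0.63 for PSMB8, 0.59 for PSMB9 and 1.04 for PSME3, and 0.21 for PSMB7 and 0.22 for PSME1. The 0.38 of PSME3 over its 4 probe sets lies under the upper quartile. These SDs come from 3 arrays each, and whether any pair of them differs was not tested.

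Replicate 3 was the lowest array for 4 of the 8 members (PSMB8, PSMB9, PSMB6 and PSME3), a share near that of all detected genes, of which 44.9% were lowest there. Replicate 1 was lowest for 3 members, against 18.4% of detected genes, and replicate 2 for 1 member, against 36.7%. The highest array was replicate 1 for 1 member, replicate 2 for 5 and replicate 3 for 2, against 29.2%, 36.6% and 34.1% of detected genes. PSMB9, nearly level at 9907 in replicate 1 and 9909 in replicate 2, is counted under replicate 2. The signals of PSMB8 and PSMB9 in replicate 3 lay 0.41 and 0.37 log2 units under their means, and -0.44 and -0.47 after quantile normalization. TAP1 and TAP2, the transporter genes beside them on chromosome 6, were also lowest in replicate 3, at -0.30 and -0.53, as was the loading factor TAPBP at -0.55. These 3 genes do not stand for their list: of 13 detected genes of peptide transport and display, 5 were lowest and 4 highest in replicate 3, with a median deviation of -0.03. CALR at -1.24 and HLA-C at -0.11 were also among the genes lowest there. ERAP1 and ERAP2, aminopeptidases that trim peptides in the endoplasmic reticulum, lay at 0.72 and 0.25 in replicate 3. The class I light chain B2M lay at 0.58 and the chaperone PDIA3 at 0.27 there. All these values are before the shifts given below. Genes of the core alpha ring, the structural outer rings of the barrel, went the other way: 5 of 6 were highest in replicate 3, with a median deviation of 0.35, against 34.1% of detected genes. After quantile normalization 4 of 6 were highest there, against 2006 of the 4982 detected genes. When arrays were centred on the median level of the housekeeping genes the count was 3 of 6, against 411 of the 4982. The 12 housekeeping genes, all detected, among them YWHAZ at 9482 ± 747 and TFRC at 9063 ± 1787 (SD, n = 3 each), had a median deviation of 0.12 in replicate 3. Centring each array on their median deviation lowered every gene in replicate 3 by 0.15 log2 units, after which 6 of the 8 members and 3027 of the 4982 detected genes were lowest there, with a median of -0.20 over all detected genes. After this centring 5 of 6 alpha ring genes were still highest in replicate 3, against 909 of the 4982 detected genes. Centring on their median log2 level, which differs from the median deviation because the genes differ widely in level, lowered every gene there by 0.31, more than their median deviation of 0.12. Under that stronger shift all 8 members were lowest in replicate 3, PSMB10, PSMB7 and PSME1 turned negative there, the median of the alpha ring there was 0.03 and that of all detected genes -0.36, and 3865 of the 4982 detected genes were lowest there. Under the inferred names, PSMB8, PSMB9, PSMB6, PSME3, TAP1, TAP2 and TAPBP were lowest in replicate 3 without further scaling and after quantile normalization. After quantile normalization 1872 of the 4982 detected genes were lowest there. Both centrings lower replicate 3 against the other arrays, so a gene already lowest there stays lowest under them by construction. The part of an array-wide difference in these deviations was not tested.

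**Figure D4:**
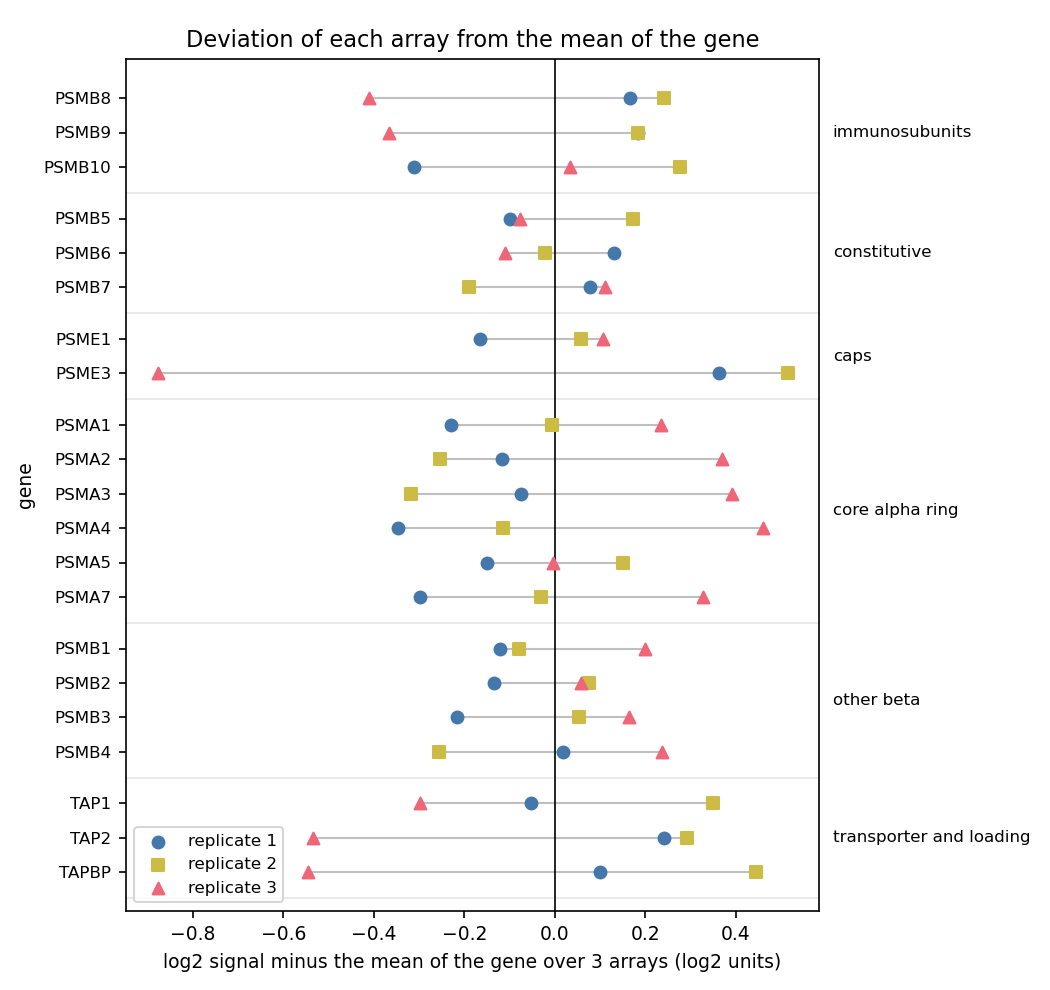
Log2 signal of each array minus the mean of the gene over the 3 arrays (log2 units), for members (the upper 3 blocks), other core subunits and TAP1, TAP2 and TAPBP. Replicate 3 (triangles) lies left of the mean for PSMB8, PSMB9, PSME3, TAP1, TAP2 and TAPBP, and by less for PSMB5 and PSMB6. It lies right of the mean for 5 of the 6 alpha ring genes, by 0.24 to 0.46. When arrays are centred on the median level of the housekeeping genes, 3 of the 6 are highest in replicate 3, against 411 of the 4982 detected genes.

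Differences within a pair cancel any constant shift of a whole array, so centring an array leaves them as they are, whereas quantile normalization, which is no constant shift, moved the SD of PSMB9 minus PSMB6 to 0.34 and the median over the pairs to 0.34. The log2 difference PSMB8 minus PSMB5, centred on its mean, was 0.26, 0.07 and -0.33 in replicates 1, 2 and 3, with an SD of 0.30. PSMB9 minus PSMB6 was 0.05, 0.20 and -0.26, with an SD of 0.23. In both pairs the immunosubunit was lowest against its counterpart in replicate 3. PSMB10 minus PSMB7 was -0.39, 0.47 and -0.08, with an SD of 0.43, so its low array was replicate 1. The signal ratio within a pair changed between arrays by a factor of 1.51, 1.38 and 1.81 for the 3 pairs. Without replicate 3 the SD was 0.14 for PSMB8 and PSMB5 and 0.11 for PSMB9 and PSMB6, and for PSMB10 and PSMB7 it was 0.61 without replicate 3 and 0.22 without replicate 2. The cap pair PSME1 and PSME2 could not be formed.

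The rest of the particle was detected as well. The 7 alpha subunits had 6 measured genes, of which 6 were detected, with a median of 5.49 log2 units over the limit. The signal of PSMA1 averaged 11748 ± 1895 and that of PSMA5 averaged 7417 ± 771 (SD, n = 3 each). The 4 non-catalytic beta subunits were all detected, with PSMB1 at 7857 ± 976 and PSMB2 at 8530 ± 672 (SD, n = 3 each). Of the 19S base and lid, the cap that binds ubiquitin chains and unfolds substrates, 21 of 21 measured genes were detected, with a median of 3.83 log2 units over the limit, among them the ATPase PSMC2 at 6720 ± 1176 and the small subunit SEM1 at 5337 ± 1068 (SD, n = 3 each). Across all genes 41.6% were detected.

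Assembly factors and other caps were detected for 5 of 5 measured genes. POMP, the chaperone that matures new particles and is needed for immunoproteasome assembly, had signals of 11452, 10194 and 16006 in replicates 1, 2 and 3. PSMG2, an assembly chaperone of the alpha ring, had 5902, 5937 and 5991, an SD of 0.01 log2 units. PSME4 (PA200, a nuclear cap) had 801, 804 and 742, and PSMF1 (PI31, which binds the same face of the barrel) had 1453, 1786 and 1230.3. POMP was highest in replicate 3, and PSME4 and PSMF1 were lowest there.

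Genes that act after the proteasome were mostly detected. Of 6 cytosolic peptidases, 4 passed, among them LAP3, a leucine aminopeptidase known as an IFN-γ target, at 11370 ± 3919 and NRDC at 1478 ± 119 (SD, n = 3 each). THOP1, a peptidase that destroys peptides, had signals of 187, 470 and 173 in replicates 1, 2 and 3 and did not pass (limma adjusted p = 0.357), and BLMH had 13.5, 30.5 and 19.4. In peptide transport and display, 13 of 14 measured genes passed, with TAP1 at 6912 ± 1595 and the chaperone CANX at 7481 ± 642 (SD, n = 3 each). TAPBPL, a peptide editor, did not pass at 279 ± 55.2 (SD, n = 3; limma adjusted p = 0.105), although its signals of 245, 342 and 248 in replicates 1, 2 and 3 lay above the limit of each array.

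Among regulators, 5 of 6 measured genes were detected. IRF1, a transcription factor that IFN-γ induces and that drives PSMB9 and TAP1, had signals of 4375, 6324 and 4557 in replicates 1, 2 and 3. Replicate 2 was its highest array, as it was for PSMB8, PSMB9, PSMB10, PSMB5 and PSME3, and 36.6% of detected genes were highest there. This depends on the scaling for PSMB8 and PSMB9. After quantile normalization PSMB9 was highest in replicate 1, at 0.26 against 0.21 in replicate 2. Centring on the median housekeeping deviation made replicate 1 highest for PSMB8 (0.29 against 0.27) and PSMB9 (0.31 against 0.21). NFE2L1, the factor that raises constitutive proteasome genes when the proteasome is impaired, had 2220, 3022 and 1709. RFXAP, a subunit of the RFX complex at class I and II promoters, had 8.84, 25.6 and 64.5 and was not detected. NLRC5 had no single-symbol probe set among those used.

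**Figure D5:**
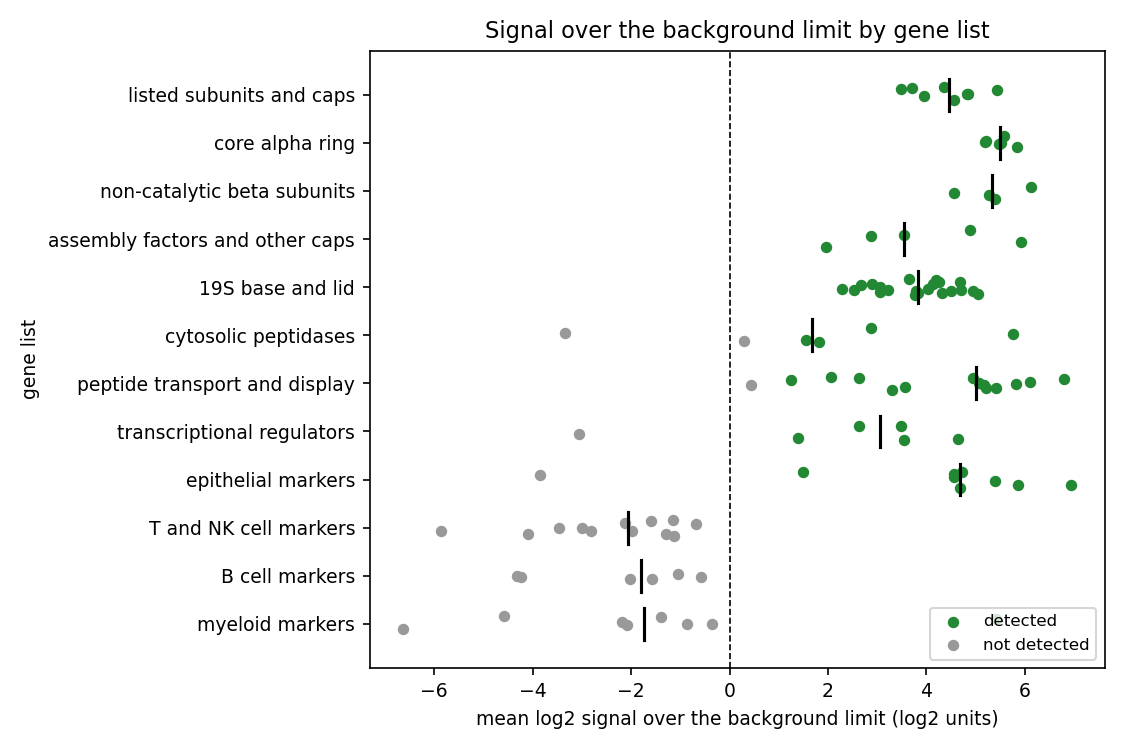
Mean log2 signal over the background limit (log2 units, dashed line at 0) for the members and each gene list, with green points for detected genes, grey points for genes that did not pass and black bars for medians. The members and the lists of the particle lie right of the line, with a member median of 4.46, and T, NK and B cell markers lie left of it.

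Markers of the labelled cell type and of cells that carry immunosubunits without interferon were set beside these values. Of 9 epithelial markers 8 were detected, with KRT19 at 5399 ± 1054 and KRT20 at 4808 ± 414 (SD, n = 3 each), while the intestinal cadherin CDH17 was not detected at 14.3 ± 3.35 (SD, n = 3). Among 12 T and NK cell markers and 6 B cell markers, limma detected 0, with 0 at an unadjusted p under 0.05 as well. PTPRC, the pan-leukocyte antigen CD45, had signals of 32.6, 4.77 and 10.9 in replicates 1, 2 and 3. NKG7 (3.67 ± 1.33), CR2 (10.1 ± 0.619) and CD79B (11.5 ± 5.27) were among the lowest of these (SD, n = 3 each). The signals of the 12 T and NK cell markers summed to 620, 998 and 516 and those of the 6 B cell markers to 436, 317 and 420.0 on the 3 arrays. Of 8 myeloid markers 1 was detected, lysozyme (LYZ) at 9260 ± 4444 (SD, n = 3), which secretory epithelial cells also make and whose only probe set carries a suffix, while MNDA and SPI1 lay at 2.13 ± 0.780 and 10.7 ± 9.03 (SD, n = 3 each).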

How the data were processed

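The authors deposited one intensity per probe set on a linear scale. The submitters' processing notes name MAS5 and, as software, Affymetrix Expression Console 1.1, and the trimmed mean of each array, without the outer 2% at either end, was 500.3. The scaling target and presence calls are not given in the sources used here. Values were present for 22277 of 22283 probe sets, of which 19071 in all had 1 symbol in the platform annotation, 1043 had several, and 2163 with values had none listed. Empty values were dropped and the rest named as 15 unnamed values, a block of 100 probe sets, 493 with lower numbers, 21622 others in file order and 47 unnamed. Signals were taken to log2 with no pseudocount. Among probe sets with 1 symbol, the brightest on average stood for its gene. In limma 3.58.1 (R 4.3.3, variance trend), the mean of log2 signal minus the limit was tested against 0, and the fit was tested on simulated data. The number of arrays limits the precision. The members and all lists were chosen with earlier results of these data known. Named genes are all members, POMP, PSMF1, PSME4, IRF1, NLRC5, NFE2L1 and, in each list, the 2 detected genes with the smallest p and the 2 undetected ones with the lowest signal over the limit. A further gene of this rule is not reported here. TAP2, TAPBP, CALR, HLA-C, ERAP1, ERAP2, B2M and PDIA3 were named after their values were seen, as was the exact form GAAAGCGAAA. Alternatives concerned the probe sets, limit, name order, variance prior, scaling, pseudocount and replicates.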

Additional observations from a re-analysis of the deposited data

How the results depend on the processing

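The detection of the 8 measured members kept its direction and its side of the threshold in 86 of 86 comparisons with another probe set rule, limit, variance prior, scaling, pseudocount or set of replicates, with log2 signals over the limit between 3.08 and 6.07. Without suffixed probe sets, 6 of 6 measured members, 33 of 38 genes of the proteasome and presentation lists (58 of 62 with all probe sets) and 3169 of 8369 genes were detected. With names as deposited, the limit was taken anew under those names and lay far higher than 233, 207 and 172, so the next values reflect both changes. Then 0 members, 3 list genes and 377 genes were detected. The log2 value over that higher limit was -4.79 for PSMB9, -2.12 for PSMB10, -7.42 for PSMB5, -4.36 for PSMB6, -0.91 for PSMB7, -5.48 for PSME1 and -2.97 for PSME3, while PSMB8 lay at 0.94. With 1 uniform displacement of 487 rows, PSMB7 lay at -1.17, PSMB10 at 1.55 and PSME1 at 1.56, and 7 members were detected. PSMB7, PSMB10 and PSME1 are read 488 rows away in the inferred order, so at 487 rows they take the value of another row. Leaving out each replicate in turn gave 4723 to 4917 detected genes, a median member SD of 0.13 to 0.22 and a median pair SD of 0.14 to 0.33. Centring on the median level of the housekeeping genes gave a median member SD of 0.39 in place of 0.23, and centring on their median deviation, added after seeing the data, gave 0.26. In comparisons also added after seeing the data, centring on the median level turned the deviation of replicate 3 to -0.28 for PSMB10, -0.20 for PSMB7 and -0.21 for PSME1, centring on the median deviation turned it to -0.12 for PSMB10, -0.041 for PSMB7 and -0.045 for PSME1, and quantile normalization turned that of PSMB10 to -0.014. No paired analysis was possible because the series has 1 group.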

Other observations

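The 34 genes whose promoter windows held GAAAGCGAAA included 15 measured genes that are not members, and 11 of these were detected, beside 41.6% of all genes. The median over the 15 was 1.36 log2 units over the limit. The adaptor MYD88 had signals of 2761, 2731 and 1824.0 in replicates 1, 2 and 3, FAM111A had 1924, 1419 and 1824.2, and the antiviral protein SHFL had 437, 646 and 339. IL12A, a cytokine subunit of antigen-presenting cells, was not detected at 44.3, 72.0 and 60.7, nor was the receptor TNFRSF1B at 68.5, 51.5 and 66.1. The letters were chosen after the matches in the members were seen, and these genes were picked from the 34 for their known roles after their values were seen.

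Likeness of pattern was measured among detected genes as the root mean square distance between centred log2 signals over the 3 arrays. LRPAP1 (0.0031), TEX2 (0.0062), ADD1 (0.0095), UFC1 (0.013) and RAB26 (0.015) were nearest to the mean profile of PSMB8, PSMB9, PSMB10 and PSME1, which was -0.03, 0.19 and -0.16 in replicates 1, 2 and 3. The members that form this profile lay 0.17 to 0.20 from it, and 1271 of 4974 other detected genes lay nearer than any of them. SMARCC1 (0.0026), COA1 (0.0032), MRPS17 (0.0039), RAC2 (0.0051) and PUS3 (0.0072) were nearest to the profile of PSMB5, PSMB6 and PSMB7, which was 0.04, -0.01 and -0.03. With 3 arrays such distances are a description of these libraries.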
